A study of Drosophila melanogaster with 3 samples.

Results

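The 10 genes described here encode the secreted guidance cues Slit and Netrin, their receptors, and the Commissureless proteins. They are the ligand genes sli, NetA and NetB, the receptor genes robo1, robo2, robo3, fra and unc-5, and comm and comm2, which regulate the sorting of Robo receptors. The 10 were matched by symbol among 13945 protein-coding genes of the annotation. They were selected on the peaks themselves, with the strength and position of their promoter peaks already known, so these values are given as a description and no test was run on them. Binding of Jarid2, a DNA-binding cofactor of Polycomb repressive complex 2, had been mapped by chromatin immunoprecipitation and sequencing in 3 biological replicates of whole Drosophila melanogaster embryos, 0 to 24 h old and of both sexes. All 3 belonged to 1 group, a stable transgenic line with green fluorescent protein (GFP) fused to the C terminus of Jarid2, and the antibody was against GFP. Whole embryos hold many cell types, so whether a peak came from neurons, midline cells or other tissue cannot be told apart. No sample without the fusion was analysed here, and the read depth behind each peak is unknown.

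Slit is a repellent secreted by the midline of the nerve cord, and Robo receptors on growing axons keep those axons from entering or recrossing it. In Drosophila, Commissureless diverts Robo from the surface of axons that have to cross, which makes them insensitive to Slit. Netrins are secreted midline cues that attract axons carrying the receptor Frazzled, the product of fra, and repel axons carrying Unc-5.

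Per replicate the data were a permissive list of 30000 peaks. For the 3 together they were a list of 5464 peaks that passed a threshold on the irreproducible discovery rate, called reproducible below. The authors' caller gave each peak a signal on a scale that holds only within its list. Ranks by that signal, with 1 the strongest, are therefore used, and they can be set side by side between replicates because the 3 lists are of equal length. A promoter peak is one whose summit lay within 1 kb of any annotated start site of the gene. All 10 genes had one in the reproducible list, against 25.5% of all protein-coding genes, and the summit of the strongest was found 28 to 94 bp downstream of the nearest start in each gene.

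The sequence around the start site is shown for the 6 genes whose sequence is printed here, because the summits lay just downstream of it. Each run has 30 bases of the Release 6 reference assembly (RefSeq, dm6 coordinates) in the direction of transcription, from 10 bases before the start base to 19 after it. Capitals mark CAGT, the core letters of the insect initiator, a core promoter element.

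robo2, chr2L:1420434-1420463, minus strand: agaattcgttcctCAGTcgcatttcgattg

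robo3, chr2L:1256407-1256436, plus strand: gagttttggttactgccgccaacggttatc

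comm, chr3L:15728411-15728440, minus strand: ctctgccagctagCAGTCAGTcaacttata

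comm2, chr3L:15699831-15699860, minus strand: ccgctcaaatCAGTttgtttgtagactcag

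NetA, chrX:14653815-14653844, minus strand: aacgaaaacgaacacaCAGTcgcctgtgga

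NetB, chrX:14749357-14749386, minus strand: caaagcaaacgcaaaCAGTttcgaccgagc

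CAGT began within 10 bp of the start nearest the summit in 6 of the 10 genes, namely robo2, comm, comm2, fra, NetA and NetB. It did so at 37.8% of the 3484 starts nearest to the strongest promoter summit of a bound gene and at 25.3% of all 19253 start positions of protein-coding genes. In comm2 the C was the start base itself, and in the other 5 genes the first match lay 2 to 6 bp downstream, with another at 7 bp in comm. In robo1, robo3, sli and unc-5 these letters did not begin within 10 bp of the start. This motif was chosen after the data were seen.

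The second set of sequences shows the motifs at comm, the gene with most matches to GCCAT near the promoter summit and with a strong peak upstream. GAGAG is bound by GAGA factor and GCCAT by Pleiohomeotic, proteins found at Polycomb response elements. Capitals mark these letters on either strand, ATGGC being the reverse complement of GCCAT. The first run holds the 150 bases directly upstream of the start, and the second is the intergenic peak upstream of comm described below, from 100 bases before to 190 after its summit.

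comm, chr3L:15728431-15728580, minus strand: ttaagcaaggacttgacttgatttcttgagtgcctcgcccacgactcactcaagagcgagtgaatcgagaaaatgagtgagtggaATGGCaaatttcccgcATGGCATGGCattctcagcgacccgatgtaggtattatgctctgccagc

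comm upstream peak, chr3L:15729399-15729689, minus strand: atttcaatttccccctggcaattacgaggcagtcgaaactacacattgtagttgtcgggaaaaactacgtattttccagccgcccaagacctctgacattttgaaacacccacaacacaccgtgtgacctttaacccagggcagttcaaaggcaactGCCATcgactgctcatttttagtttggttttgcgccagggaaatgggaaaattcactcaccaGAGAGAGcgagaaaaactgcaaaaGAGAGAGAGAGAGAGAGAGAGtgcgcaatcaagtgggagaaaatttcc

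Within 200 bp of the promoter summit, counting overlapping matches on both strands, GAGAG was present in 4 of the 10 genes (robo1, sli, comm2 and NetB), against 60.4% of all 3786 promoter peaks and 40.7% of 19252 windows of the same length around start positions. NetB held 6 matches, robo1 and comm2 held 2 each, and sli held 1. GCCAT was present in 3 genes (comm with 3 matches, robo2 and sli with 1 each), against 46.8% of promoter peaks and 52.6% of start windows. The strongest receptor gene, robo2, and the strongest regulator, comm, therefore had no GAGAG in this window. GAAAA, letters bound by Dsp1, were present in 7 genes, against 89.7% of promoter peaks and 88.5% of start windows. ACGTG, the core site of Single-minded and Tango, which act together in midline cells, was present in 5 genes (robo1, comm, comm2, unc-5 and NetA), against 36.4% and 31.9%. TATCGATA, the site of the replication element factor DREF, was found at robo1 alone among the members (4.62% of promoter peaks and 7.65% of start windows), and CAGGTA, bound by Zelda, at comm2 alone (8.03% and 9.11%). The GC content of the member windows ran from 41.9% at fra to 54.6% at robo3, with a median of 48.4%, against 44.6% for all promoter peaks. A match is a description of the letters in these windows and was not tested as a binding site.

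Among the ligand genes, NetB and sli had strong promoter peaks and NetA a weaker one. The NetB peak had a signal of 1653 and rank 110 in the reproducible list, and ranked 119, 101 and 118 in replicates 1, 2 and 3. The sli peak had a signal of 1513 and rank 142, and ranked 137, 120 and 189 in the replicates. The NetA peak had a signal of 751 and rank 765, and ranked 1013, 672 and 686. Every replicate placed NetB above sli and sli above NetA. NetB and NetA are neighbouring paralogs on chromosome X, and the mean rank was 113 ± 10.1 (SD, n = 3) for NetB and 790 ± 193 for NetA. Their summits lay 74 bp downstream of the first NetB start and 29 bp downstream of the second NetA start. Of the 3556 genes with a reproducible promoter peak, 3.32% had a stronger one than NetB, 4.25% than sli and 22.7% than NetA.

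The sli gene carried 2 promoter peaks, 1 at each of its start positions. The gene lies on chromosome 2R, from 15869495 to 15922118 on the minus strand. At the upstream start, shared by 5 annotated transcripts, the summit lay 48 bp downstream, in the 5' UTR. At the internal start, used by 1 transcript, the summit lay 24 bp downstream and had rank 2297, with ranks of 2296, 2486 and 2910 in the replicates. The peak at the upstream start was the stronger in all 3 replicates.

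The receptor genes spanned the widest range of the roles. The robo2 peak was the strongest of all 10 genes, with a signal of 2767 and rank 7, and ranked 11, 6 and 14 in replicates 1, 2 and 3. The fra peak followed with a signal of 1703 and rank 103, and ranked 140, 89 and 108. The other receptors were far lower. For unc-5 the rank was 1879, with 1517, 1750 and 2853 in the replicates. For robo1 it was 2228, with 2599, 1993 and 3118. For robo3 it was 3588, with 4822, 3159 and 3924. Thus the 3 Robo paralogs, which all bind Slit, were ordered robo2, robo1, robo3 in every replicate, and the robo2 ranks (6 to 14) did not overlap those of robo1 (1993 to 3118) or robo3 (3159 to 4822). Among genes with a promoter peak, 0.197% had a stronger one than robo2, 3.09% than fra, 48.3% than unc-5, 55.3% than robo1 and 76.9% than robo3. The robo2 gene lies on chromosome 2L from 1380086 to 1420453 (minus strand), robo3 on 2L from 1256417 to 1296596 (plus strand) and robo1 on 2R from 22692524 to 22700970 (minus strand). The fra gene lies on 2R from 12529053 to 12564184 and unc-5 on 2R from 15340472 to 15368300, both on the plus strand.

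Start sites within the receptor genes were not marked alike. The unc-5 gene has 2 start positions, and its stronger peak lay 61 bp downstream of the internal one, used by 1 transcript. At the upstream start a weaker summit, of rank 3996, lay 824 bp upstream. It ranked 3255 in replicate 2, and 6670 and 6354 in replicates 1 and 3, so only replicate 2 held it among its 5464 strongest peaks. Of the 13 reproducible promoter peaks of the 10 genes this was the only one not held by all 3 replicates, where held means a summit within 200 bp. It was also the farthest from a start inside the 1 kb limit, and the nearest outside was the comm peak of rank 86, 1159 bp upstream. The robo1 gene has 2 starts, and its summit lay 94 bp downstream of the upstream one, in the intron just past the short first exon. In fra a second summit of rank 1134 lay 283 bp downstream of the start, within the same peak interval as the first.

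Both comm genes ranked near the top of the list. The comm peak had a signal of 2738 and rank 8, and ranked 13, 8 and 11 in replicates 1, 2 and 3. The comm2 peak had a signal of 1935 and rank 55, and ranked 50, 57 and 96. Both single start sites had the summit in the 5' UTR, 77 bp downstream for comm and 48 bp for comm2. In each replicate comm was above comm2, with mean ranks of 10.7 ± 2.52 and 67.7 ± 24.8 (SD, n = 3). Among genes with a promoter peak, 0.225% had a stronger one than comm and 1.6% than comm2.

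**Figure D1:**
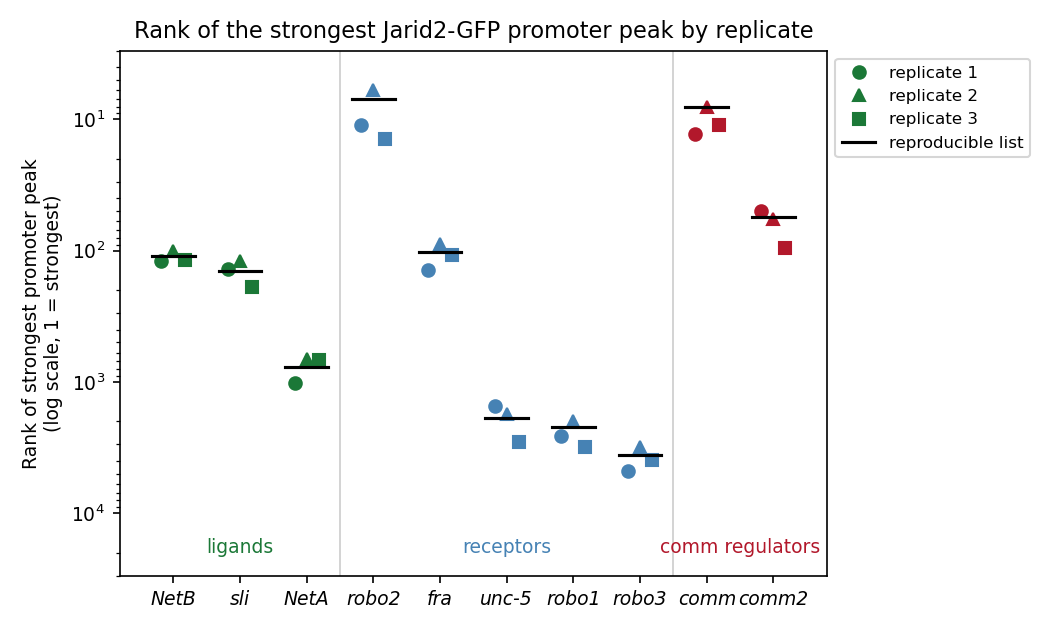
Rank of the strongest promoter peak of each gene on a reversed log axis (1 is the strongest), with circles, triangles and squares for replicates 1, 2 and 3 and a black bar for the reproducible list. The 3 points of robo2 (6 to 14) and of comm (8 to 13) lie at the top, and those of robo3 (3159 to 4822) lie lowest.

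Set in order of mean rank, the genes ran robo2, comm, comm2, fra, NetB, sli, NetA, unc-5, robo1, robo3. Between genes adjacent in this order, the replicate ranges of robo2 and comm, comm2 and fra, fra and NetB, and unc-5 and robo1 overlapped. Those of fra (89 to 140) and sli (120 to 189), which are not adjacent, overlapped too. Within each replicate comm2 nevertheless ranked above fra, and unc-5 above robo1. The order of robo2 and comm, that of fra and NetB and that of fra and sli differed between replicates. The ranges of comm and comm2, NetB and sli, sli and NetA, NetA and unc-5, and robo1 and robo3 did not overlap, although NetB and sli (119 against 120) and robo1 and robo3 (3118 against 3159) came close. The median rank in the reproducible list was 31.5 over the 2 comm genes, 142 over the 3 ligand genes and 1879 over the 5 receptor genes, against 1957.5 over all 3556 genes with a promoter peak. The receptor genes included the strongest and the weakest of the 10, and their ranks overlapped those of the other roles. The ranks of the 2 comm genes were 8 and 55, and those of the 3 ligand genes ran from 110 to 765. These few genes were chosen with the ranks known, so nothing is read from the separation of roles or of ranges.

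The count of genes with a promoter peak did not depend on 1 replicate. All 10 had one among the 5464 strongest peaks of each replicate, against 27.2%, 24.5% and 26.5% of protein-coding genes in replicates 1, 2 and 3. For all 10 the reproducible peak was held by all 3 replicates, a property of 19.6% of protein-coding genes. Among the 2732 strongest reproducible peaks, 9 of 10 kept a peak, against 16.4% of protein-coding genes, and the exception was robo3. Among the 2732 strongest peaks of each replicate the count was 9, 9 and 7, against 17.0%, 16.0% and 16.5% of protein-coding genes, with robo3 missing from all 3 and unc-5 and robo1 also from replicate 3. The genes were chosen with these peaks known and the reproducible list was made from these replicates, so nothing is read from the difference to the background.

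Summit positions moved by 16 bp or less between replicates in 8 of the 10 genes. In the reproducible list the strongest promoter summit of all 10 genes lay 0 to 100 bp downstream of the nearest start, as it did in 47.3% of the 3556 genes with a promoter peak. The median distance was 54.5 bp downstream, against 30 bp for all genes with a peak. The range over the replicates was 5 bp for NetB and sli, 6 bp for robo2, and 10 to 16 bp for comm, robo1, comm2, unc-5 and fra. For NetA it was 41 bp. For robo3 it was 121 bp, from 43 bp upstream in replicate 2 to 62 and 78 bp downstream in replicates 3 and 1, and this was the weakest peak of the 10. The summits of the 9 other genes lay downstream of the start in every replicate. In the reproducible list all but robo1 had the summit in an annotated 5' UTR. No share over all bound genes is given for the movement between replicates, the side of the start by replicate or the 5' UTR. Whether these counts differ from those of other bound genes was therefore not tested.

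**Figure D2:**
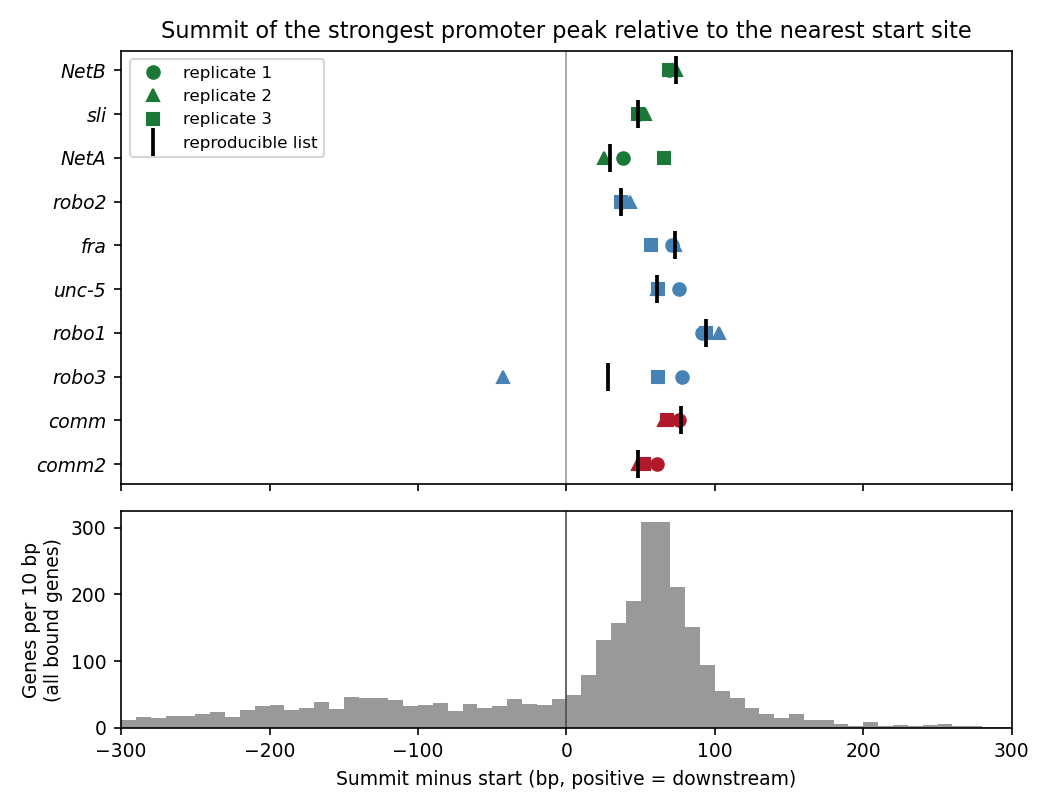
Upper panel, distance in bp from the nearest start site to the summit of the strongest promoter peak (positive is downstream), with a marker for each replicate and a black tick for the reproducible list. Lower panel, number of genes per 10 bp for genes with a reproducible promoter peak, drawn out to 300 bp either side. Markers of 9 genes lie downstream of the start in every replicate, and the robo3 marker of replicate 2 lies at -43 bp.

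All reproducible peaks, promoter peaks included, were counted over each gene and 10 kb on either side. All 10 genes had a reproducible peak in this span, as did 62.5% of protein-coding genes. For the 10 this follows from the promoter peaks they were selected on, so nothing is read from the difference. The 10 genes are long, with a median of 37656 bp against 2166 bp for all protein-coding genes, and a longer span can hold more peaks. Per 10 kb of span and flank the median was 0.709 peaks for the 10 genes and 0.446 for all. These densities include promoter peaks, on which the 10 genes were selected, so nothing is read from this difference either. The spans held 40 peaks, of which 13 were promoter peaks of the 10 genes, 9 lay within 1 kb of a start of another gene, 12 lay in the gene bodies and 6 in the flanks. The density was highest at comm (1.86 per 10 kb) and unc-5 (1.25) and lowest at robo3 (0.166), whose promoter peak was the only one in its span of 60180 bp. The comm2 span also held its promoter peak alone.

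The strongest peak outside a promoter lay upstream of comm. Its summit was intergenic, on chromosome 3L at 15729589, 1159 bp before the comm start, with a signal of 1782 and rank 86. It ranked 92, 77 and 117 in the replicates, and 1159 bp was the distance to the nearest start of any gene. Of the 1678 reproducible peaks more than 1 kb from every protein-coding start it was the fifth strongest. A second summit of rank 3170 lay 1360 bp upstream in the same peak interval. Within 200 bp of the main summit, GAGAG occurred 11 times, in 2 runs of GA repeats on the side nearer to comm, printed above. At least as many matches were found at 32 of the 1678 peaks (1.91%), and any match at 53.2% of them. This count was made after the sequence was seen. By contrast, the comm promoter summit had no GAGAG and 3 GCCAT within 200 bp.

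In the reproducible list every gene-body peak was weaker than the strongest promoter peak of its gene. The strongest was in fra, 9239 bp downstream of the start, with rank 1447 and ranks of 933, 1779 and 1936 in the replicates. In NetB a peak of rank 1645 lay 31549 bp downstream of the nearest NetB start. It ranked 2103, 1920 and 1134, and was 1481 bp from the start of the gene hog. NetA had 3 gene-body peaks, of ranks 2185, 3825 and 4256, the last held by replicate 3 alone. In unc-5 there were 3, the strongest of rank 2522 with another summit 200 bp away. It ranked 3579, 2287 and 2380, and in replicate 3 it was stronger than the unc-5 promoter peak (2853). In sli there was 1, of rank 4259. The 12 gene-body peaks were found in fra, unc-5, NetA, NetB and sli, and in none of robo1, robo2, robo3, comm and comm2. In the flank of robo2 lay 2 weaker peaks, at -2467 and -6540 bp from the start (negative is upstream), of ranks 3226 and 3636. Over the 18 gene-body and flank peaks the median rank was 3517, and 13 of these peaks were held by all 3 replicates. A replicate peak could count for more than 1 summit. The second summit upstream of comm shared its strongest match with its stronger neighbour in replicate 1 (rank 92). The second unc-5 gene-body summit did so in replicates 1 and 2 (ranks 3579 and 2287).

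**Figure D3:**
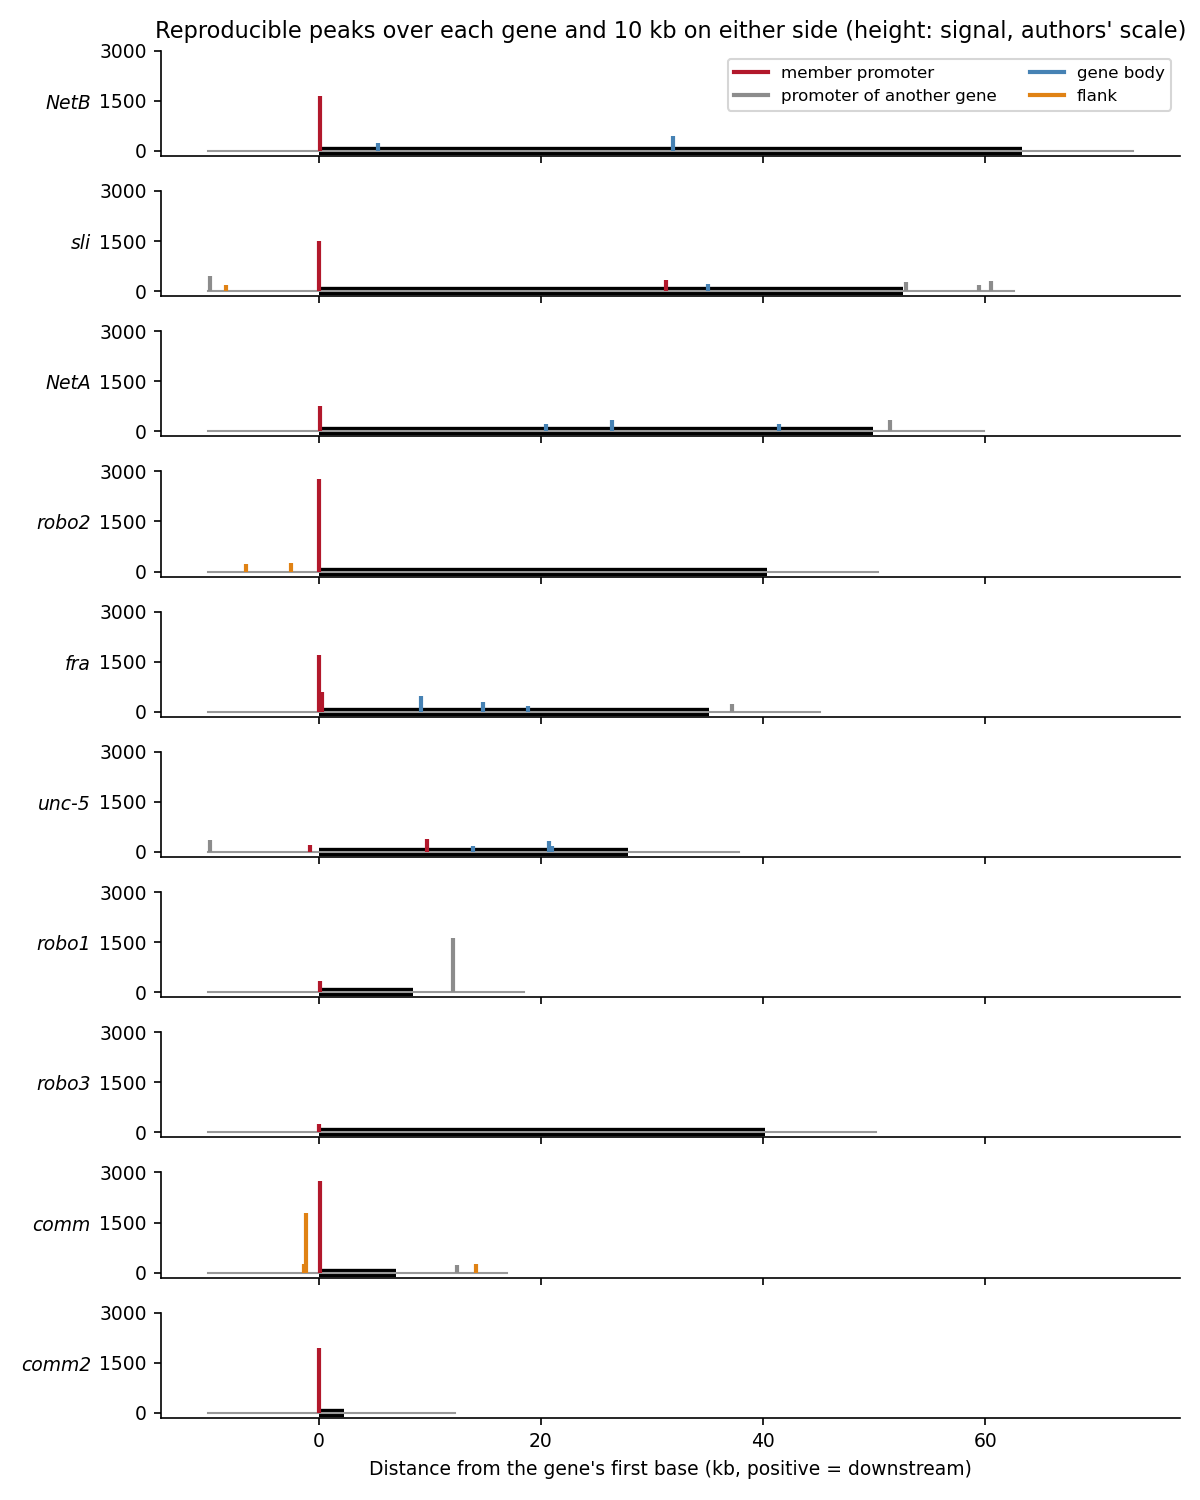
Reproducible peaks over each gene (thick line) and 10 kb on either side (thin line), drawn at their distance in kb from the gene's first base, with height giving the authors' signal and colour the place of the summit. The tallest peak of each gene stands at a start of that gene except at robo1, where the peak of another gene is taller.

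Some peaks in these spans lay near starts of neighbouring genes. The strongest lay in the robo1 flank on chromosome 2R, 68 bp from the start of Ppa, with rank 118, and it was stronger than the robo1 peak in every replicate (128, 143 and 82). The others named here were weaker. At sli there were peaks at starts of Gpo1 (ranks 2750 and 5089), Rif1 (2987) and bdg (1556). At NetA a peak lay 62 bp from the start of sbm (rank 2217), and at fra one lay 107 bp from Cyp301a1 (3775). In the unc-5 flank a peak of rank 2053 lay within 1 kb of starts of the nuclear receptor gene Hr51 and of a non-coding RNA gene.

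The comm genes lie in a tandem group on chromosome 3L with another paralog, comm3, which was not one of the 10 genes and is named for this reason. From comm2 to comm the gap was 21.7 kb, with 2 coding genes and 2 weak peaks between them, of ranks 3398 and 4088. The gap from comm3 to comm2 was 49.8 kb and held 19 coding genes and no reproducible peak. At the 3 start positions of comm3 there was no reproducible promoter peak. The permissive lists had a peak within 1 kb of a comm3 start at ranks 10258, 16163 and 17906 in replicates 1, 2 and 3. Inside comm3 lay 3 reproducible peaks, all in introns of comm3, and 2 of these were at the start of the nested gene Phs. Thus 2 of the 3 paralogs had promoter peaks at rank 55 or stronger, and comm3 had none in the reproducible list.

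**Figure D4:**
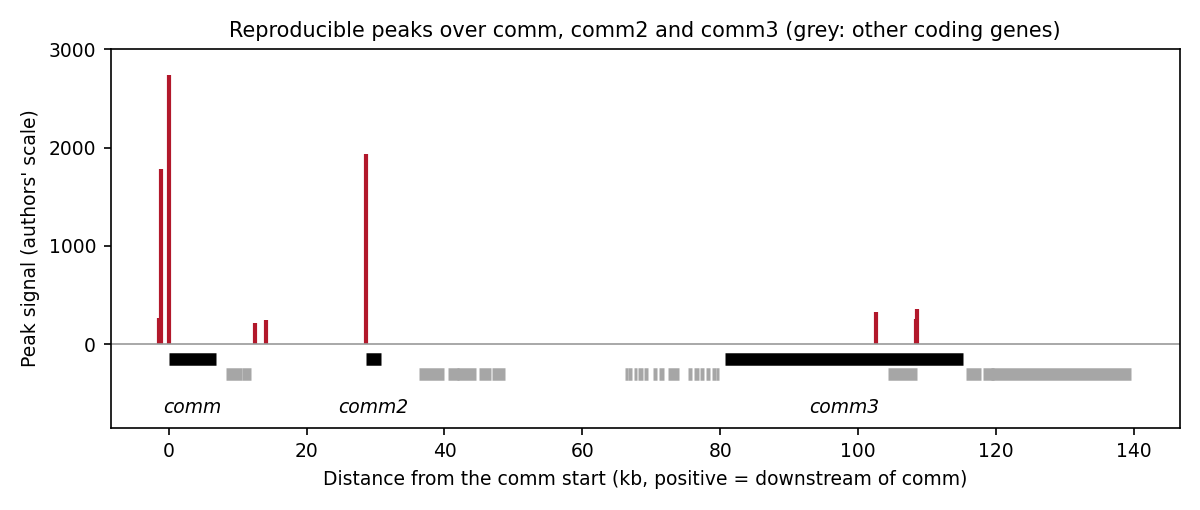
Signal of the reproducible peaks (authors' scale) against the distance from the comm start in kb, over the region from comm to comm3. Black bars mark the 3 comm genes and grey bars other coding genes. The tall lines stand at comm (2738 at the promoter and 1782 upstream) and comm2 (1935), and the 3 lines within comm3 are at most 363.

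For comparison, a list of 34 signalling genes and 15 transcription factor genes that act in neurons or midline cells was drawn up by hand. It is wider than Slit-Robo and Netrin signalling, so its shares are not those of these pathways alone. Of the 34 signalling genes, 25 had a reproducible promoter peak (73.5%), and of the 15 transcription factor genes 11 had one (73.3%), beside the 25.5% of all protein-coding genes given above. The list was drawn up with earlier results of these data known, so the counts are no independent evidence. The strongest signalling genes were dlp, which encodes a glypican (rank 4), kuz, which encodes a metalloprotease that cleaves Robo (rank 9), stan, which encodes the atypical cadherin Flamingo (rank 48), and Dscam1, which encodes an immunoglobulin receptor that binds Netrin (rank 61). In the replicate lists the kuz peak was also assigned to the gene B4, described below. Abi and Cdc42 were among those without a reproducible promoter peak. The permissive lists had one for Abi at ranks 5801, 6131 and 11294 in replicates 1, 2 and 3. For Cdc42 only the list of replicate 1 had one, at rank 4706. Of the transcription factor genes, lola (rank 303), zfh1 (330), tup (507) and exex (860) were the strongest, and fru and Lim3 had no reproducible promoter peak. In the permissive lists of replicates 1, 2 and 3, fru had one at ranks 4579, 10678 and 5211. Lim3 had one at 10196, 7718 and 14290. The median rank of the bound signalling genes was 614 and of the bound transcription factor genes 962, against 126 for the 10 genes.

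**Figure D5:**
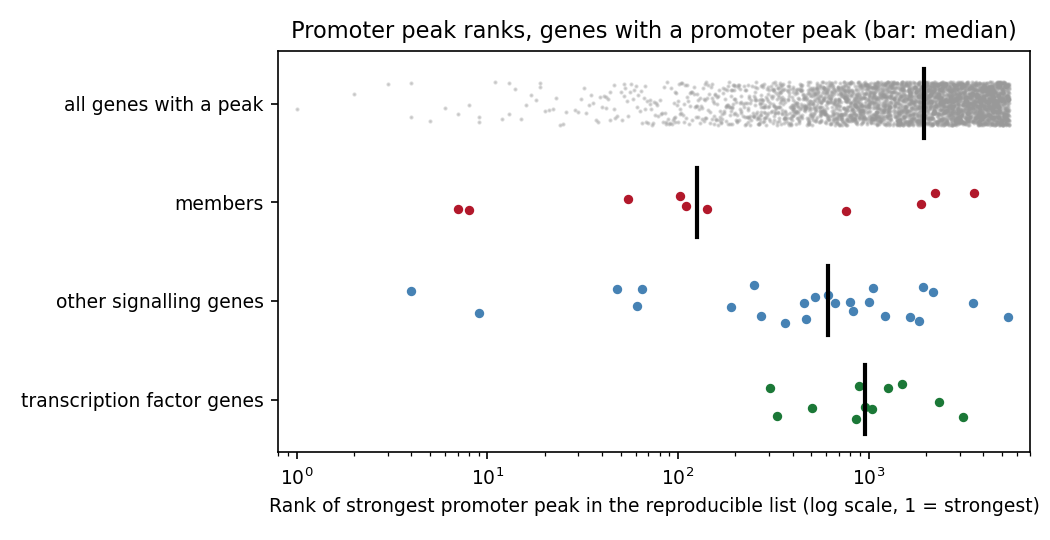
Rank of the strongest promoter peak in the reproducible list (log axis, 1 is the strongest) for all 3556 genes with a promoter peak, the 10 members, the 25 other signalling genes and the 11 transcription factor genes with one. Points are genes and black bars are medians (1957.5, 126, 614 and 962).

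Genes most like the strongest member of each role were found from the ranks of the strongest promoter peak in the 3 replicate lists, as the distance between log2 ranks, among 5128 genes with a listed promoter peak in all 3, leaving out the 10 genes themselves. Nearest to NetB were edl (distance 0.27, ranks 110, 114 and 133) and Piezo, which encodes a mechanosensitive channel (0.29). Outside the 10, nearest to robo2 were FER, which encodes a tyrosine kinase (0.63, ranks 9, 7 and 20), and the insulin receptor gene InR (0.70). Outside the 10, nearest to comm were InR (0.74, ranks 12, 9 and 18) and B4 (0.81, ranks 8, 10 and 13). These B4 ranks were also those of kuz. Each peak has its own rank within a list, so B4 and kuz were assigned the same peak in each replicate. The kuz gene was therefore as near to comm as B4.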

How the data were processed

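The files used were 5 peak lists on dm6 in narrowPeak format. Per the deposited notes, the authors derived a permissive list from each replicate's alignment plus a control alignment, and another from all replicate alignments pooled. The thresholded list was derived from these 4, so it gives no support independent of the replicates. Sonicated fragments were 200 to 800 bp long, per the labels. The aligner and the peak caller are not given in the sources used here. The signal deposited for each peak is the authors' value on the scale of its own list and was used for ranks within a list. The 5 lists on dm3 were not used.

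Summits were compared with start sites of the Ensembl release 115 annotation (BDGP6.54), which uses dm6 coordinates, on 6 chromosomes, with Python 3.11.15, numpy 2.4.6 and pandas 2.3.3. A peak was held by a replicate when a summit lay within 200 bp among its 5464 strongest peaks. Most widths were a default (69.9% of reproducible peaks were 450 bp wide), so width was not used. No sample pairing or group comparison existed and no test was run. SDs are over the 3 biological replicates. The counting error of the ranks cannot be given, because depth is unknown. The assignment of summits to genes was checked on planted summits.

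The members and lists were chosen with earlier results of these data known. Named genes were all members, from the signalling and from the transcription factor genes the 4 strongest and up to 2 without a peak, the 2 genes outside the members most like the strongest member of each role, and genes with the start nearest to a peak in a span. Choices made with the data in view were the CAGT count, the comparison of replicate rank ranges, the GAGAG count at the peak upstream of comm, the gaps between paralogs and comm3. Alternatives tried were other distances, flanks, windows, matching limits and list lengths, the nearest start alone, protein-coding transcripts alone, omission of peaks within 300 bp of a stronger one, the pooled list, and each replicate left out. One upstream sequence is not reported here.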

Additional observations from a re-analysis of the deposited data

How the results depend on the processing

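Of the counts recomputed under alternatives, 56 stayed within 1.5 times the reported value and 6 moved by more. The 10 members kept a promoter peak at 500 bp, against 22.9% of protein-coding genes, and at 2000 bp, against 29.5%. They also did with the nearest start (20.5%), with the pooled list of doubled length (34.2%) and without peaks near a stronger one (25.5%). With replicate 1, 2 or 3 omitted all 10 kept one, against 20.6%, 21.1% and 21.4%. Among the 2732 strongest peaks 9 did, against 16.4%. Among these, 2283 protein-coding genes had a promoter peak in place of 3556. Without a flank the spans held 24 peaks in place of 40. With windows of 100 bp either side of the summit, GAGAG was found in 2 members, GCCAT in 1, TATCGATA in 0 and CAGGTA in 0. With 300 bp either side, GAGAG was found in 5, GCCAT in 4, TATCGATA in 1 and CAGGTA in 1. A shorter window has less room for a match. No share over all promoter peaks is given at these lengths, so nothing is read from the changes. With each replicate omitted in turn the spans held 34 peaks, 33 to 35 of the 49 listed signalling and transcription factor genes had a promoter peak in place of 36, and 2879 to 2990 protein-coding genes did. Omission here required a peak to be held by the remaining replicates, in a list still made with all 3. Restriction to protein-coding transcripts removed no start site. No paired analysis was possible because the series had 1 group. Depth is unknown, so absence of a peak, as at comm3, is absence from these lists only.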

Other observations

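Between robo3 and robo2 on chromosome 2L lay 83.5 kb with 12 coding genes and no reproducible peak. Between NetA and NetB on chromosome X lay 32.1 kb with 1 coding gene and no reproducible peak. The robo2 flank peaks lay on the other side of that gene, upstream of its start.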
